A study of Mus musculus with 2 samples.

Results

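The nuclear-encoded subunits of the mitochondrial respiratory chain are the proteins that the cell nucleus contributes to complexes I to V of the inner mitochondrial membrane. Members were the probes whose gene symbol starts with Ndufa, Ndufb, Ndufc, Ndufs or Ndufv (complex I), Sdha to Sdhd (complex II), Uqcr (complex III), Cox4 to Cox8 (complex IV) or Atp5 (complex V), without the Ndufaf assembly factors, Cox7a1 and Cox8b. This rule took 103 of the 41174 probes on the array, for 82 genes. Of these genes, 78 were detected, among 13903 detected genes in all. No measured ratio entered the rule.

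The samples were ventral prostates of 6-month-old FVB/N mice (spelled FBV/N in part of the labels). One RNA pool came from 6 wild-type mice and the other from 6 mice with an ARR2PB-miR32 transgene, in which ARR2PB, a composite probasin promoter, drives the microRNA miR-32 in prostate epithelium under androgen control. The same pair of pools was hybridised to 2 Agilent mouse arrays, with the transgenic pool in the green dye Cy3 on array 1 and in the red dye Cy5 on array 2. Each genotype was therefore 1 pooled sample, the arrays were technical repeats, and no p-value could be computed. All values below are log2 ratios of transgenic over wild type unless stated otherwise, given for array 1, for array 2 and as their mean, and each SD is over the 2 technical arrays (n = 2). The SD leaves out differences between mice. In bulk tissue, fewer cells of a type and less RNA per cell cannot be told apart.

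Complex I takes electrons from NADH and complex II takes them from succinate, and both pass them to ubiquinone. Complex III moves them on to cytochrome c and complex IV to oxygen, and complexes I, III and IV pump protons, whose return through complex V drives ATP synthesis. Except for complex II, each complex joins subunits encoded in the nucleus to a few encoded in mitochondrial DNA. The secretory epithelium of the prostate is known for exporting citrate rather than oxidising all of it in the citric acid cycle, which feeds the chain with electrons.

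The transgene is named for miR-32, whose mature arms in RefSeq (GRCm38.p6, chromosome 4, minus strand) are shown because they identify the agent that separates the pools. Capitals mark the seed, bases 2 to 8, and the labels do not say which arm was meant.
mmu-miR-32-5p: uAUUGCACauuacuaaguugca
mmu-miR-32-3p: cAAUUUAGugugugugauauu

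Among features that the rule did not use, the members' promoters were searched for the letters of 3 factors known to act on respiratory chain genes. The letters were GCGCATGCG for NRF1, CCGGAAGT for ETS factors such as GABP and AAGATGGC for YY1, on both strands, in the window from 250 bases before to 50 bases after each start in RefSeq (GRCm38.p6), which held 67 of the 82 members. The NRF1 letters are nearly their own reverse complement, so that matches on both strands overlapped, and each gene was counted once. NRF1 letters lay in 8 members (11.9%), against 1.95% of all genes with a promoter in the table and 3.88% of the detected ones. YY1 letters lay in 10 members (14.9%), against 3.19% of all and 5.34% of detected genes. ETS letters lay in 5 members (7.46%), which is above the 4.31% of all genes and below the 9.11% of detected genes. By complex, NRF1 letters were in 2 of 33 members of complex I, 0 of 3 of II, 2 of 5 of III, 1 of 11 of IV and 3 of 15 of V. ETS letters were in 1, 0, 2, 1 and 1 of them in the same order, and YY1 letters in 7 of complex I, 3 of complex V and 0 of the others. At least 1 of the 3 was found in 22 members (32.8%), against 8.94% of all genes. The matching share of detected genes is not given here, and for each of the 3 alone it was higher than that of all genes. Of the 10 YY1 matches, 8 (80%) lay after the start on the gene's own strand, against 30.6% of 927 matches in all promoters. The stretches below were chosen because they lie before the start of members described in the results. They run 5′ to 3′ on the gene's strand with 20 bases on either side, and capitals mark the match.
Atp5g2, NRF1, chr15:102671061-102671109, minus strand: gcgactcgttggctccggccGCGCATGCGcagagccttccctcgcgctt
Cox6a1, NRF1, chr5:115349092-115349140, minus strand: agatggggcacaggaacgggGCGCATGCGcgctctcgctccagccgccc
Ndufa11, NRF1, chr17:56717682-56717730, plus strand: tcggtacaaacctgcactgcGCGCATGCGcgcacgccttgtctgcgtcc
Uqcr11, ETS, chr10:80406860-80406907, minus strand: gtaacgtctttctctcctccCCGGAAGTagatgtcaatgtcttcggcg
Atp5h, ETS, chr11:115419931-115419978, minus strand: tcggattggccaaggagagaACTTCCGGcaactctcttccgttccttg
Atp5j, YY1, chr16:84835037-84835084, minus strand: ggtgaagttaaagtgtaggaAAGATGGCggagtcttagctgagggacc

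In Atp5h the match is on the opposite strand and is printed as its reverse complement. A match describes letters in a window and is no evidence of binding.

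The position of a probe on the array moved with its ratio. The array has 532 rows. Before normalization, the median red signal over background of all detected probes fell from 7.47 (log2) in rows 251 to 300 to 6.57 in rows 501 to 532 on array 1. On array 2 it fell from 7.29 to 6.88. In the same rows green was at 8.64 and 8.63 on array 1 and at 9.09 and 9.03 on array 2. Green moved along the array as well. From rows 1 to 50 to rows 451 to 500 it rose from 8.32 to 8.91 on array 1 and from 8.79 to 9.20 on array 2. Over rows 451 to 500 the median ratio of all detected probes was 0.60 on array 1 and -0.27 on array 2, against -0.23 and 0.09 in rows 1 to 50. Of the 98 detected member probes, 16 (16.3%) lay in rows above 450, a limit set after the values were seen. Of the 17 member probes whose arrays differed by at least 1 in log2, 14 were among them. The probe in use lay there for 11 of the 78 member genes. Beside each such member its row is given below, and the part of the position in its ratio was not tested.

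**Figure D1:**
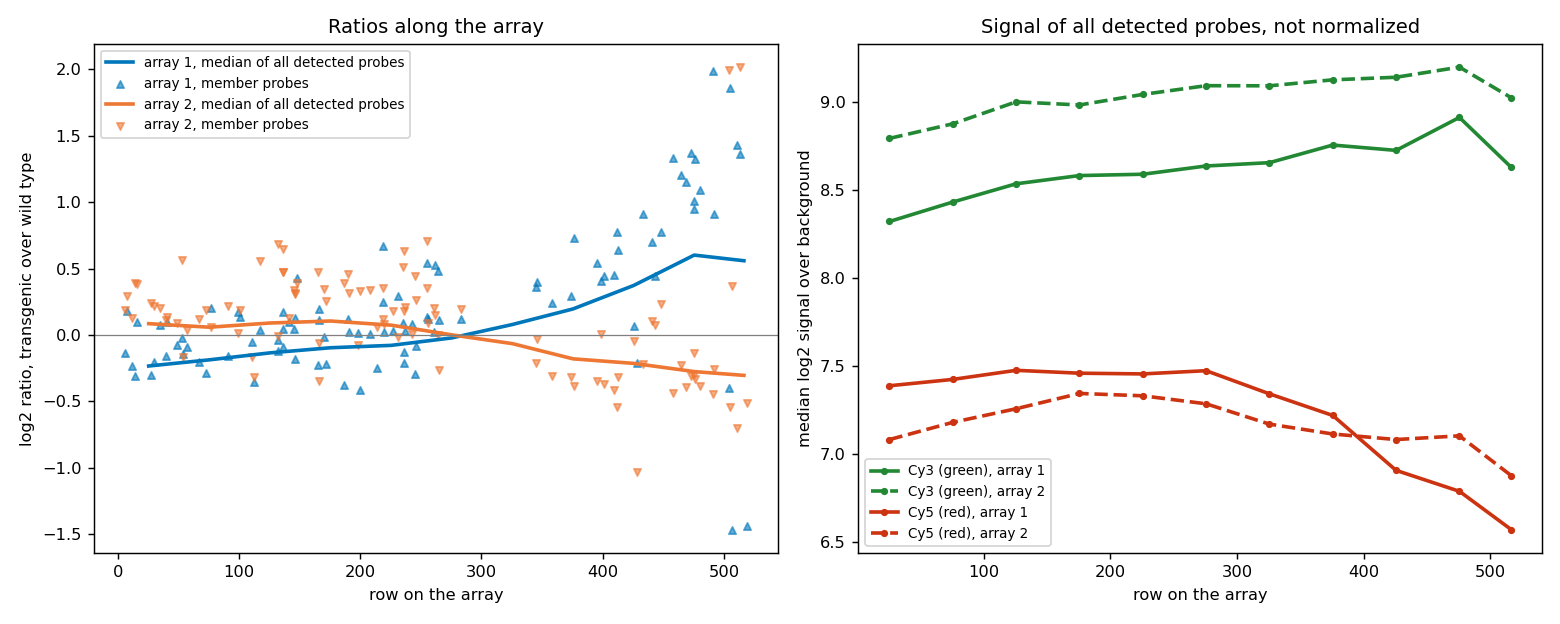
Left, log2 ratios of the 98 detected member probes (triangles) and the median of all detected probes in bins of rows (lines) against the row on the array, for array 1 in blue and array 2 in orange. Right, median log2 signal over background of all detected probes by row and dye, not normalized. The red signal drops in the highest rows on both arrays, and the member values spread apart there. The green signal rises from the first rows to rows 451 to 500.

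As a group, the subunits lay close to equal in both pools. The median over the 78 detected members was 0.11, with array medians of 0.08 and 0.13 (SD 0.03), beside 0.01 for all detected genes. Between the pools, 56 of 78 members (71.8%) differed by less than 1.2-fold in the mean, as did 64.5% of all detected genes. The SD across member genes was 0.31, and 0.52 across all detected genes. In the 67 members with a probe in rows up to 450 the median was 0.10 and the range -0.62 to 0.62. In the 11 above it was 0.45 with a range of -0.98 to 1.69. All detected genes had a median of -0.004 in rows up to 450 and of 0.17 in the rows above. Each of the 78 detected members was well above background in every channel.

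Few members passed a rule of size. The 2-fold rule asked for a mean of at least 2-fold, with both arrays past 1.5-fold on the same side, and only Ndufa6 passed it, in the higher direction, against 1.09% of all detected genes higher and 3.53% lower. No member was lower by this rule (0 of 78). Under the 1.5-fold rule, with at least 1.2-fold on each array, Ndufa6 and Ndufv3 were higher and Atp5g2 was lower, against 2.82% and 7.51% of all detected genes. By both rules the count of higher members was near the share of all detected genes. The lower members, 0 and 1 of 78, made up less than the 3.53% and 7.51% of all detected genes. The split of 2 higher and 1 lower became 1 and 2 in the authors' deposited table of the whole series. By direction alone, 28 members (35.9%) were above 0 on both arrays and 6 (7.69%) below, while 44 (56.4%) had the arrays on opposite sides. The background was 24.6% above and 27.3% below among all detected genes, with 48.1% on opposite sides. In the deposited table of the series the split of 28 and 6 was 22 and 19, where 29.8% of all genes were above 0 on both arrays, so that the members' share there was near the background.

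**Figure D2:**
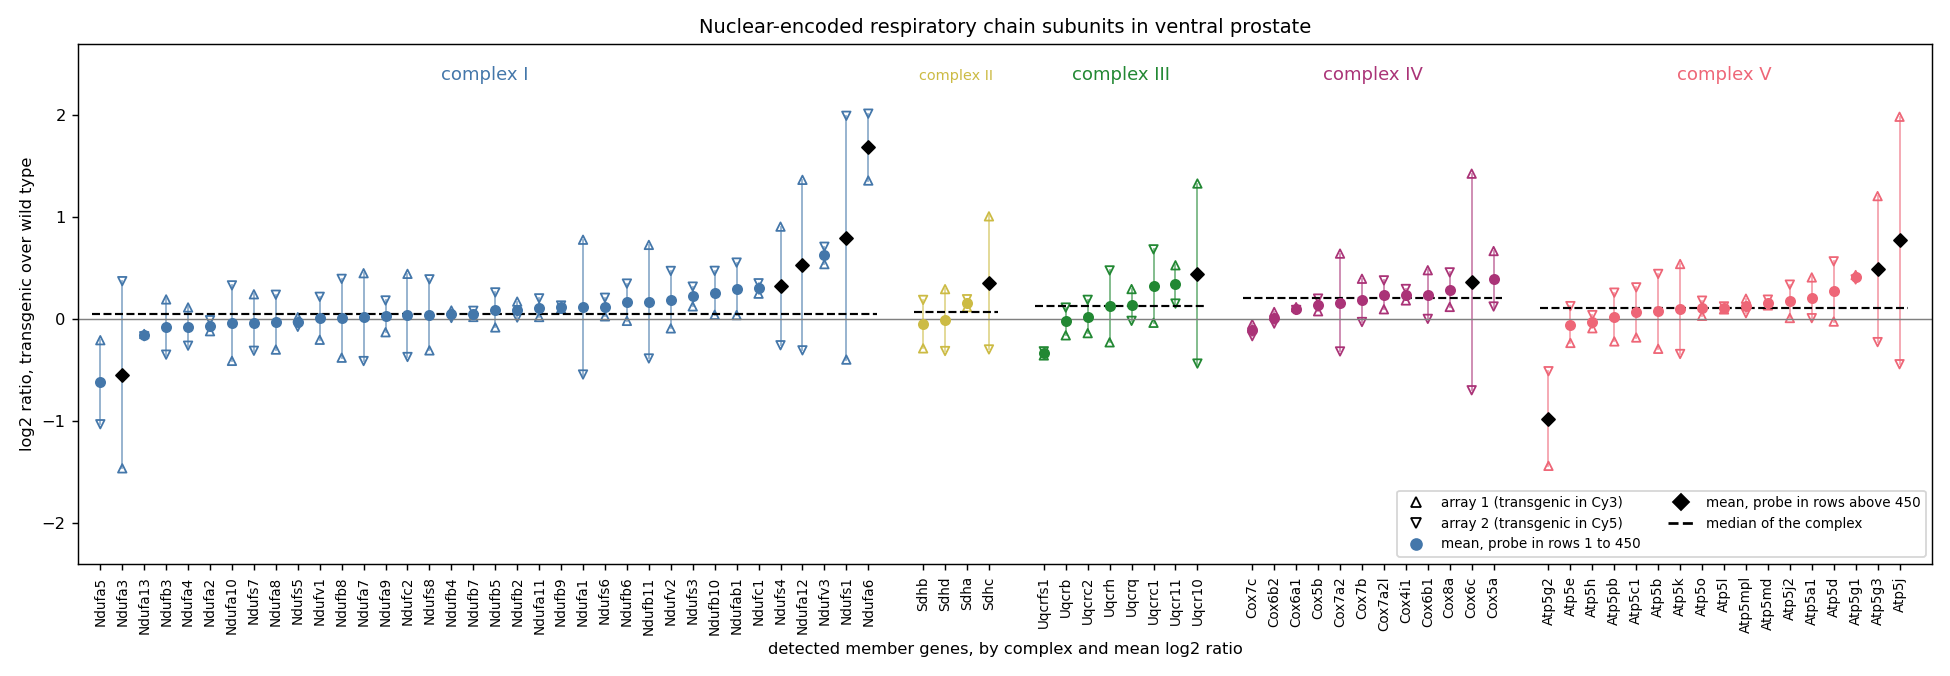
Log2 ratio (transgenic over wild type) of 77 of the 78 detected members, grouped by complex and ordered by mean. Triangles are the arrays, joined by a line, filled symbols their mean (black diamonds for probes in rows above 450), and dashed lines the medians of all detected members of each complex, which lie between 0.05 and 0.21.

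The medians of the complexes were close to each other and to 0. Complex I had a median of 0.05 over 37 genes, with array medians of 0.03 and 0.18 (SD 0.11). Complex II had 0.07 over 4 genes, with 0.21 and -0.05 (SD 0.18). For complex III the value was 0.13 over 8 genes, with -0.09 and 0.13 (SD 0.16). Complexes II and III thus had array medians on both sides of 0. Complex IV had the highest median, 0.21 over 12 genes, with array medians of 0.15 and 0.05 (SD 0.07), both lower than the median of the gene means because the genes were ordered differently on the arrays. Complex V stood at 0.11 over 17 genes, with 0.03 and 0.13 (SD 0.07). The spread of the complex medians, from 0.05 to 0.21, was of the size of the differences between array medians within a complex. Complex IV also had the largest share of members above 0 on both arrays, 7 of 12, with 1 below, compared with 12 and 3 of 37 in complex I, 1 and 0 of 4 in complex II, 1 and 1 of 8 in complex III and 7 and 1 of 17 in complex V. Its rank was lost on single arrays and with median centring: complex II was highest on array 1 alone (0.21), complex I on array 2 alone (0.18) and complex III with median centring (0.42, against 0.40 for complex IV).

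Complex I begins with its core, the 7 nuclear subunits that carry the NADH site and the chain of iron-sulfur clusters, with a median of 0.04 and array medians of -0.20 and 0.32. None passed either rule (0 of 7), and 6 of the 7 had the arrays on opposite sides of 0. Ndufv1, which binds NADH and FMN, read -0.20 and 0.22 (mean 0.01, SD 0.30). Its partner Ndufv2, an iron-sulfur protein, read -0.09 and 0.47 (mean 0.19, SD 0.40). Both were below 0 on array 1 and above it on array 2. Ndufs1, the largest iron-sulfur subunit of the electron input module, read -0.40 on array 1 and 2.00 on array 2 (mean 0.80, SD 1.69), and its only probe lay in row 504. The wild-type pool's normalized log2 intensity for it was 10.83 and 10.23, and the transgenic pool's was 10.43 and 12.23, so that the transgenic channel of array 2 stood apart from the other 3. Others near the ubiquinone site were nearer to 0: the means were 0.22 for Ndufs3, -0.03 for Ndufs7 and 0.04 for Ndufs8. Of these Ndufs3 alone was above 0 on both arrays, at 0.13 and 0.32 (SD 0.14).

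Around the core sit accessory subunits that stabilise the complex. Ndufa6, a small LYR-motif protein that anchors the mitochondrial acyl carrier protein at the matrix arm, had the highest ratio of all members. Its transgenic log2 intensity was 12.80 on array 1 and 13.83 on array 2, and the wild type's was 11.44 and 11.82, so that the pools did not overlap. The ratios were 1.36 and 2.02 (mean 1.69, SD 0.46), or 3.22-fold. Its only probe lay in row 513, where the detected probes nearest to it had medians of 0.74 on array 1 and 0.39 on array 2. With these medians taken off, Ndufa6 stood at 0.62 and 1.63 (mean 1.13), still past the 2-fold rule. With the loess fitted on intensity and row together, it was at 0.39 and 2.49 (mean 1.44), and in the deposited series table at 0.51 and 2.36 (mean 1.44). In both of these array 1 was under 1.5-fold and the 2-fold call was lost, while the 1.5-fold call was kept. Among detected genes with a probe in rows above 450, 2.85% were higher by the 2-fold rule, against 0.843% in the rows below.

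Ndufv3, an accessory subunit of the electron input module, was the other higher member. Its brightest probe, in row 255, read 0.54 and 0.71 (mean 0.62, SD 0.12), or 1.54-fold, and the pools did not overlap: 12.53 and 12.56 in the transgenic pool against 11.99 and 11.85 in the wild type. Its next detected probe gave 0.26, and the other one was not detected. The mean of its detected probes was 0.44, under the 1.5-fold rule. In the deposited series table it had a mean of 0.56, also just under it.

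Ndufa5, an accessory subunit of the matrix arm, had the lowest mean in complex I. It read -0.21 and -1.03 (mean -0.62, SD 0.58) and missed the 1.5-fold rule because array 1 was within 1.2-fold. Under the ratios of the Feature Extraction software the arrays were closer, -0.69 and -0.77, and Ndufa5 passed the 1.5-fold rule there (mean -0.73), in the deposited series table (-0.80), with loess on intensity and row (-0.76) and with neighbouring spots taken off (-0.71). Its probe lay in row 428. In all of these settings both arrays were below 0.

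The other accessory subunits were mostly within a small range. All 10 Ndufb genes, which build the far end of the membrane arm, were within 1.2-fold, from -0.08 to 0.26, with a median of 0.09, and 5 of them were above 0 on both arrays. Such a narrow range was not seen in the 13 Ndufa genes, whose median was -0.03 and whose range ran from Ndufa5 to Ndufa6. However, Ndufa6, Ndufa12 and Ndufa3 had their probes in rows 513, 473 and 507, and Ndufa5 in row 428. No Ndufb probe in use lay past row 376. The other Ndufa genes ran from -0.16 to 0.12, and the part of position in this contrast was not tested. Ndufc1, a small membrane-arm subunit, followed Ndufa6 and Ndufv3 among complex I members with the same sign on both arrays, at 0.25 and 0.35 (mean 0.30, SD 0.07), and a second probe of it gave 0.41. Ndufa13, also known as GRIM-19, was below 0 on both arrays at -0.15 and -0.17 (mean -0.16, SD 0.02), and Ndufa2 at -0.12 and -0.01 (mean -0.06, SD 0.08). Ndufab1, the acyl carrier protein that Ndufa6 anchors, read 0.04 and 0.55 (mean 0.30, SD 0.36), and a second probe of it gave 0.01. Ndufa6, measured by 1 probe in row 513, and its partner did not show ratios of similar size.

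Several members outside these named by the rule stood out in the plots and were chosen after their values were seen. Ndufa12, an accessory subunit related to an assembly factor, had 3 probes: 0.53 in row 473 (1.37 and -0.31), 0.66 in row 505 and 0.30 in row 235. With neighbouring spots taken off, the 3 were 0.02 apart, compared with 0.36 before. Ndufa3 in row 507 read -1.46 and 0.37 (mean -0.55, SD 1.30), and Ndufs4 in row 492, an accessory subunit of the electron input module, read 0.91 and -0.26 (mean 0.33, SD 0.82). For these genes the arrays disagreed by more than the mean ratio.

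**Figure D3:**
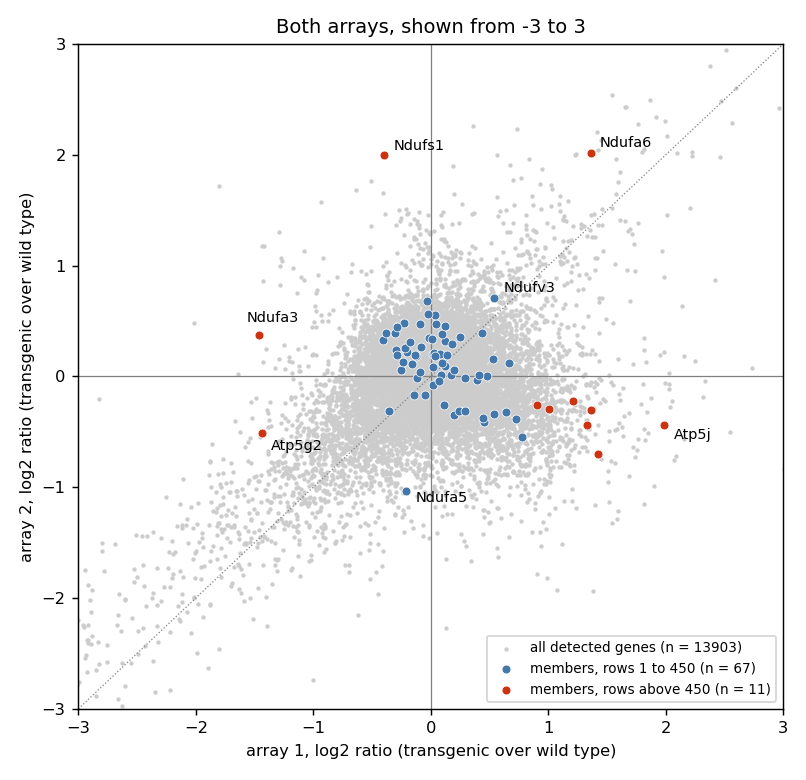
Log2 ratio on array 2 against array 1 for all 13903 detected genes (grey; points outside -3 to 3 are not shown) and the 78 members, in blue for probes in rows 1 to 450 and in red for rows above 450. Members gather near the origin; Ndufa6 and Ndufv3 lie in the upper right, Atp5g2 in the lower left, and most other red points far off the diagonal.

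Across the 98 detected member probes, the arrays were not positively related. Pearson's r between array 1 and array 2 was -0.31 over all of them and -0.32 over those in rows up to 450, given as a description over probes that share both arrays and both pools. With loess on intensity and row it was -0.21. The order of the members within the narrow range around 0 was therefore not repeated between the arrays. Rows up to 450 do not leave out position. From rows 1 to 50 to rows 401 to 450, the median of all detected probes went from -0.23 to 0.37 on array 1. On array 2 it went from 0.09 to -0.21. The part of position in r was not tested. For the 17 genes with more than 1 detected probe, 15 had all probes on the same side of 0, and the median range between probes of a gene was 0.24.

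Complex II, succinate dehydrogenase, belongs to the citric acid cycle as well as the chain. Sdha, its flavoprotein, was its only member above 0 on both arrays, at 0.12 and 0.20 (mean 0.16, SD 0.06), and a second probe, in row 448, gave 0.51. Sdhb, the iron-sulfur subunit, had a mean of -0.05, and the membrane anchor Sdhd -0.01, each with its arrays on opposite sides of 0. The other anchor, Sdhc, had its only probe in row 475 and read 1.01 and -0.30 (mean 0.36, SD 0.92).

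In complex III, Uqcrfs1, the Rieske iron-sulfur protein that hands electrons on to cytochrome c1, was the one member below 0 on both arrays. It read -0.36 and -0.32 (mean -0.34, SD 0.03), with the transgenic pool at 12.23 and 12.25 and the wild type at 12.59 and 12.56. The pools did not overlap and the arrays differed little, but the ratio was under 1.5-fold. Uqcr11, a small subunit whose promoter holds both NRF1 and ETS letters, was the one member above 0 on both arrays, at 0.53 and 0.15 (mean 0.34, SD 0.27). The core proteins had means of 0.32 for Uqcrc1 (-0.04 and 0.68) and 0.03 for Uqcrc2. Uqcrb, Uqcrh and Uqcrq, small subunits, had means of -0.02, 0.12 and 0.14. Uqcr10 in row 458 read 1.33 and -0.44 (mean 0.45, SD 1.25).

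Complex IV, cytochrome c oxidase, has its catalytic centre in subunits of mitochondrial DNA, and the nuclear subunits around it stabilise and regulate it. None of its detected members passed either rule (0 of 12). Cox5a, which is known to bind a thyroid hormone metabolite, had the highest mean, 0.67 on array 1 and 0.12 on array 2 (mean 0.40, SD 0.38). Cox8a was next among those with the same sign on both arrays, at 0.12 and 0.46 (mean 0.29, SD 0.24), followed by Cox6b1 at 0.48 and 0.00 (mean 0.24, SD 0.34). Cox4i1, the largest nuclear subunit, was at 0.18 and 0.30 (mean 0.24, SD 0.08). The SDs of Cox5a, Cox8a and Cox6b1 were near or above their means, and that of Cox4i1 was smaller. The lowest was Cox7c at -0.05 and -0.17 (mean -0.11, SD 0.08), the only member of the complex below 0 on both arrays. Cox6c in row 511 had the arrays furthest apart in the complex, at 1.43 and -0.70 (mean 0.36).

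Some subunits exist as a broad and a tissue-restricted form, most of them in complex IV. Of the restricted genes, Cox4i2 (lung), Cox7b2 and Cox8c (testis) were not well above background in either pool on either array, and Cox6a2 (heart and skeletal muscle) was well above it in each pool on 1 of 2 arrays. Ndufa4l2, a relative of Ndufa4, was matched to no probe by name and was not analysed here. The sperm form Cox6b2 was detected, at 0.07 and -0.04 (mean 0.01, SD 0.08). The 6 broad partners of these genes, Cox4i1, Cox6a1 (0.10), Cox6b1, Cox7b (0.18), Cox8a and Ndufa4 (-0.07), were all detected, with a median of 0.21, and 4 of them were above 0 on both arrays. Ndufa4, named for complex I, is now assigned to complex IV; counted there, it gave medians of 0.07 for complex I and 0.18 for complex IV.

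The genes that the rule leaves out, Cox7a1 and Cox8b, encode the muscle and brown fat forms of subunits of this complex. Cox7a1 read 1.65 and 1.40 (mean 1.53, SD 0.17), or 2.88-fold, and Cox8b 2.54 and 3.18 (mean 2.86, SD 0.46), or 7.27-fold, with the wild type well above background on 1 of 2 arrays for Cox8b. Both passed the 2-fold rule, while their broad counterparts Cox7a2 (mean 0.16) and Cox8a (mean 0.29) did not. Both genes are also on the list of 10 brown fat markers, of which 6 were detected. Of the other 4 detected markers, Ucp1, the uncoupling protein of brown fat, and Cidea, a lipid droplet protein, passed the 2-fold rule in the higher direction. The coactivator Ppargc1a (mean 0.48) passed no rule, and neither did Dio2, a deiodinase, which read -0.13 and -0.42 (mean -0.27). On the same list Elovl3, Prdm16, Otop1 and Zic1 were not detected. The unlogged levels of the 6 detected markers, Cox7a1 and Cox8b included, were summed, so that the brightest probes weigh most. The log2 of this sum was 11.72 and 11.52 in the transgenic pool and 10.03 and 9.74 in the wild type. For Cox7a1 and Cox8b alone it was 10.73 and 10.57 against 8.69 and 8.45. Of 12 skeletal muscle markers 4 were detected, with a median of -0.15, 1 above 0 on both arrays and 2 below. By the 1.5-fold rule 0 were higher and 1 was lower, Tnnt3 (mean -0.71). Myh2, Myh4, Myh7, Ckm, Tnni2, Myl1, Mb and Pvalb were not detected. The part of brown fat RNA in the ratios of the other subunits was not tested.

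Complex V, the ATP synthase, has a catalytic head, a rotating ring and a stalk that holds the head. The 5 head genes had a median of 0.08 and none passed a rule (0 of 5). The catalytic beta subunit Atp5b had -0.29 and 0.44 (mean 0.08, SD 0.52), and 2 further probes of it, in rows 475 and 441, gave 0.40 each. With loess on intensity and row these 2 probes gave 0.22 and 0.26. Atp5a1, the alpha subunit, read 0.41 and 0.01 (mean 0.21, SD 0.28). Atp5c1 (gamma), Atp5d (delta) and Atp5e (epsilon) had means of 0.07, 0.27 and -0.05, with their arrays on opposite sides of 0.

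The ring is made of subunit c, which 3 genes encode as the same mature protein with different import sequences, and these 3 differed. Atp5g1 read 0.43 and 0.39 (mean 0.41, SD 0.03), the highest in the complex among members with the same sign on both arrays. Atp5g2 read -1.44 and -0.51 (mean -0.98, SD 0.66), or 1.97-fold lower, with 12.82 and 12.39 in the transgenic pool and 14.26 and 12.90 in the wild type. Atp5g3 read 1.21 and -0.23 (mean 0.49, SD 1.01), with its probe in row 465. The low Atp5g2 value came from a probe in row 519, whose neighbours had medians of -0.79 and -0.34; with these taken off it was at -0.41. With loess on intensity and row it read -2.37 and -0.03 (mean -1.20), and under the ratios of Feature Extraction -2.15 and -0.31 (mean -1.23). A second Atp5g2 probe, in row 191, read 0.02 and 0.32 (mean 0.17). So the lower call for Atp5g2 rested on 1 of its 2 probes, and Atp5g1 alone of the ring genes had a ratio that the arrays shared to within 0.03 (SD).

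Of the remaining complex V members, Atp5o, which joins the stalk to the head, was at 0.03 and 0.18 (mean 0.11, SD 0.11), Atp5l, a subunit of the membrane part where synthases pair, at 0.10 and 0.12 (mean 0.11, SD 0.02), and Atp5j2 at 0.01 and 0.34 (mean 0.17, SD 0.23). Each was above 0 on both arrays and within 1.2-fold in the mean. Atp5md and Atp5mpl, small proteins of the membrane part, were also above 0 on both arrays, with means of 0.16 and 0.13. The stalk subunits Atp5pb and Atp5h had means of 0.02 and -0.03, and Atp5k, another small membrane subunit, 0.10. Atp5j, the stalk's coupling factor, had the highest mean of the complex, 0.77, from 1.99 on array 1 and -0.44 on array 2 (SD 1.72), with its probe in row 491.

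Members with and without promoter letters had similar ratios. The 8 members with NRF1 letters had a median of 0.11, as had the 58 detected members without them. For YY1 letters the medians were 0.07 for 10 with and 0.11 for 56 without, and for ETS letters 0.22 for 5 with and 0.10 for 61 without. The highest and the lowest member differ here: Ndufa6 holds none of the 3 and Atp5g2 holds NRF1 letters. Cox6a1 and Ndufa11, whose NRF1 stretches are shown above, had means of 0.10 and 0.11.

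Other mitochondrial lists had medians from 0.02 to 0.14. Of 46 assembly factors, which build the complexes and are not part of them, 40 were detected, with a median of 0.11; none passed either rule (0 of 40), 12 were above 0 on both arrays and 2 below. Cytochrome c and the makers and users of mobile carriers had a median of 0.14 over 10 detected genes of 13, citric acid cycle enzymes 0.11 over 15 of 16 and regulators of mitochondrial biogenesis 0.02 over 12 of 12, with 0 past either rule in each list. The first of these lists includes Cyc1, the cytochrome c1 of complex III, which the rule left out by its symbol. It read 0.94 and -0.10 (mean 0.42, SD 0.74), with its probe in row 430. Among the regulators, the coactivator Ppargc1a, which is also on the brown fat list, had the highest mean, at 0.49 and 0.47 (mean 0.48, SD 0.01). Glycolytic enzymes, outside the mitochondria, stood higher, with a median of 0.30 over 16 of 16, and 1 was higher and 1 lower by the 1.5-fold rule, the aldolase Aldoc (mean 0.87) and the phosphofructokinase Pfkp (mean -0.63). The 13 subunit genes of mitochondrial DNA were matched to no probe by name and were not analysed here.

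**Figure D4:**
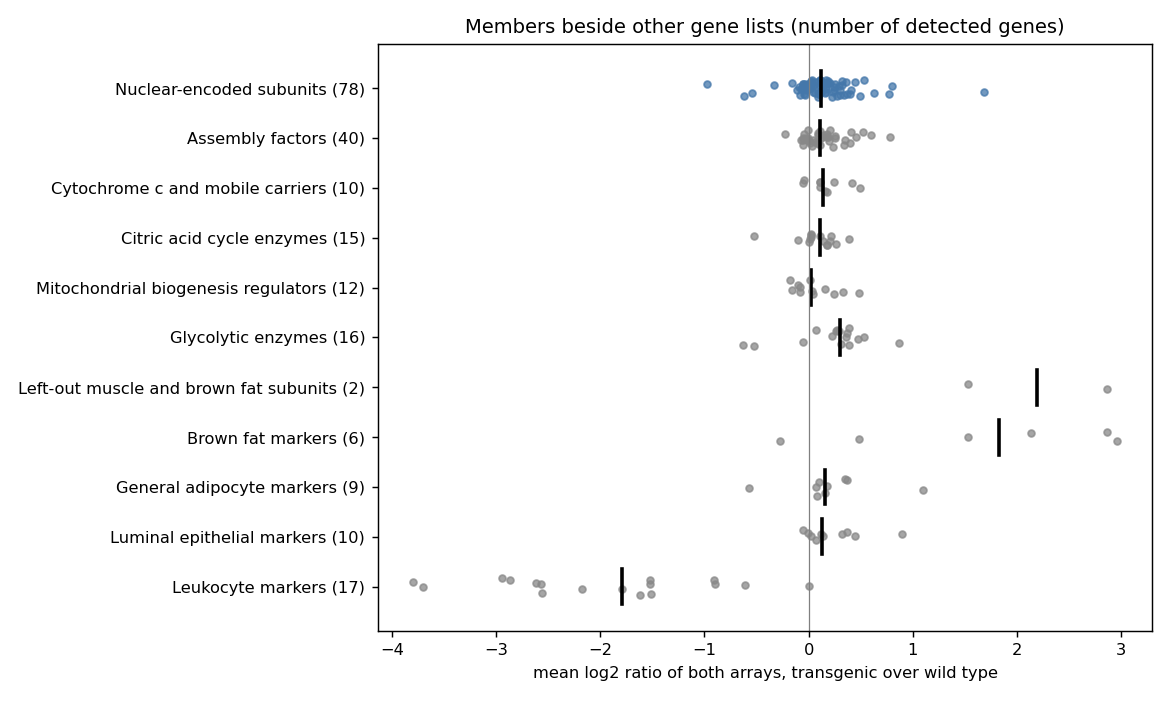
Mean log2 ratio of each detected gene (points) and the median (black bars) of the subunits and of other gene lists, with the number of detected genes in brackets. The subunits and other mitochondrial lists have medians between 0.02 and 0.14, the left-out subunits Cox7a1 and Cox8b and the brown fat markers lie above, and the leukocyte markers lie below.

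Markers of several cell types differed between the pools. Of 17 detected leukocyte markers, 13 were lower by the 2-fold rule, with a median of -1.79. The log2 of their summed unlogged levels was 12.74 and 12.84 in the transgenic pool against 15.31 and 15.45 in the wild type. Fibroblast markers had a median of -0.91 (2 of 6 lower by the 2-fold rule), basal epithelial markers -0.43 over 6 and smooth muscle markers -0.37 over 7. Luminal epithelial markers, of the cells in which the promoter is active, were all detected, with a median of 0.13 over 10. General adipocyte markers had 0.16 over 9 of 10, with Thrsp alone higher by the 2-fold rule. Of these 9, 6 were above 0 on both arrays, 2 had the arrays on opposite sides, and 1, Cfd, was below (mean -0.57). The members' median of 0.11 was near the luminal and the general adipocyte ones, and also near that of the assembly factors (0.11). The part of these differences in the members' ratios was not tested.

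**Figure D5:**
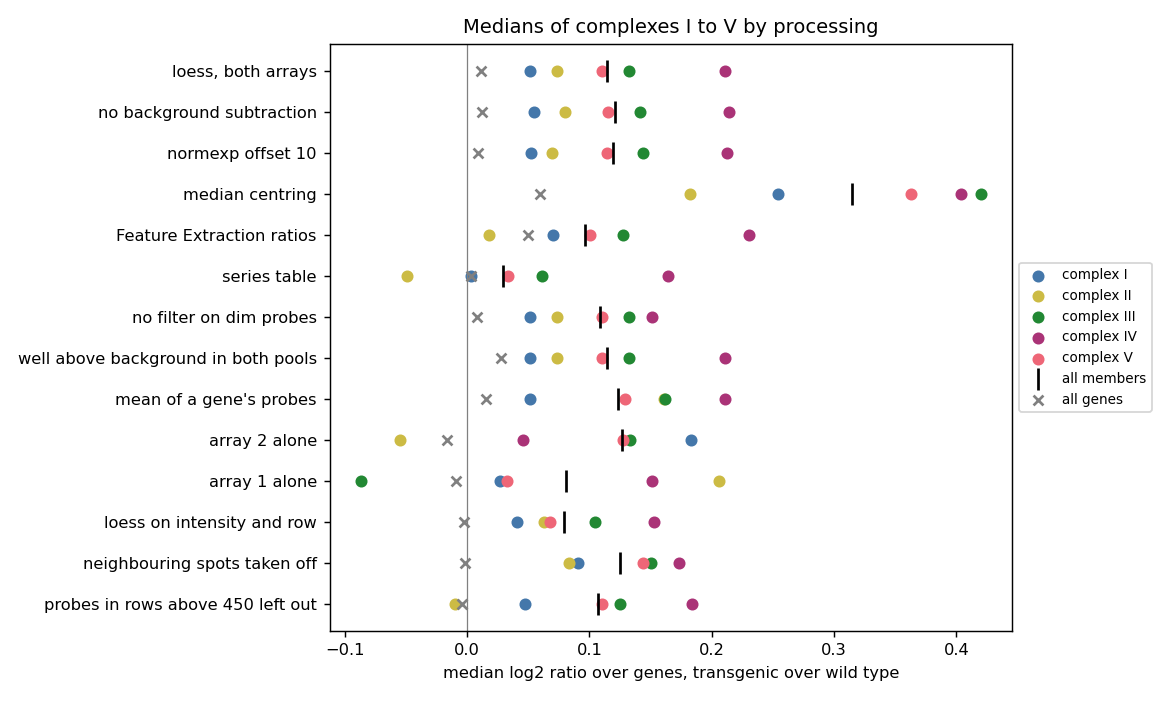
Median log2 ratio of the detected members of each complex (coloured points), of all members (black bars) and of all genes (grey crosses) under each way of processing. All member medians lie above 0, from 0.03 in the deposited series table to 0.32 with median centring, while complexes II and III change side in some settings.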

How the data were processed

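Ratios of 1 transgenic and 1 wild-type pool were measured on 2 dye-swap arrays. Per the file headers, spots were read with Feature Extraction 11.0.1.1; the deposited scanner files give median intensity and local background per spot, and the authors' log10 ratio of processed signals. The deposited series table holds log2 ratios, by comparison with the scanner files; how its probes were filtered is not given in the sources used. Intensities went through normexp (offset 50) and within-array loess (limma 3.58.1, R 4.3.3; tested on simulated data), with controls and outlier spots at weight 0. The planned mean signals were replaced by the deposited medians. Ratios were turned to transgenic over wild type and averaged. Detected probes were well above background on both arrays in at least 1 pool; the brightest stood for a gene. Symbols came from RefSeq accessions (27816 of 41174 probes matched). Normalized levels of a probe were not compared with those of another, and were added up only within gene lists.

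The members and lists were chosen with earlier results of these data known. Named members were those past a rule, the 3 highest and 3 lowest of each complex with 1 sign on both arrays, the core, head and ring genes and the restricted forms with their partners; others are described to account for the members. The precision is limited by the number of arrays, and per the file headers replicate probes varied by 15.1% and 15.7% (median CV) in green and by 30.5% and 25.9% in red. The values of 1 member are not reported here; it is counted in the medians and counts.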

Additional observations from a re-analysis of the deposited data

How the results depend on the processing

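With median centring in place of loess the medians were 0.32 for all members, 0.25 for complex I, 0.18 for II, 0.42 for III, 0.40 for IV and 0.36 for V, with 0 members lower by the 1.5-fold rule, 2 above 0 and 2 below 0 on both arrays. Of all detected genes, 5.95% were above 0 on both arrays with median centring. Under Feature Extraction's ratios 2 members were lower by the 1.5-fold rule. In the deposited series table the medians were 0.030 for all members, 0.0033 for complex I, -0.05 for II, 0.06 for III and 0.034 for V, with 0 higher by the 2-fold rule, 1 higher and 2 lower by the 1.5-fold rule and 19 below 0 on both arrays. Averaging the detected probes of each gene, 1 was higher and 0 lower by the 1.5-fold rule. The next 3 settings were chosen after seeing the data. Loess on intensity and array row gave a median of 0.079 for all members and 0 higher by the 2-fold rule, against 0.878% of all detected genes. Without the probes in rows above 450 there were 0 higher by the 2-fold rule, 1 higher and 0 lower by the 1.5-fold rule, and Atp5g2 changed sign, to 0.17, because its other probe stood for it. With the median of neighbouring spots taken off, 40 members were above 0 on both arrays, and no count of members moved by more than 1.5 times. The share of all detected genes above 0 on both arrays was then 29.5%. In that setting and in the loess on row, the 1 lower member by the 1.5-fold rule was Ndufa5 in place of Atp5g2. With the loess on row, Atp5g2 had a larger mean, -1.20 (-2.37 and -0.03), and missed the limit on array 2. On single arrays (leave-one-out), the medians ran from 0.081 to 0.126 for all members, 0.027 to 0.183 for complex I, -0.055 to 0.206 for II, -0.087 to 0.133 for III, 0.046 to 0.151 for IV and 0.032 to 0.128 for V. The counts ran from 2 to 7 higher and 1 to 2 lower by the 2-fold rule, and from 4 to 12 higher and 2 lower by the 1.5-fold rule. The shares of all detected genes by these rules on single arrays are not given here, so these counts have no background beside them. The cause of these differences was not tested. No paired analysis was possible because each genotype was 1 pool. With 1 pool of each genotype, the differences have no replicate check, and the arrays speak only for technical error.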
